A study of Mus musculus with 6 samples.

Results

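Amino acid transporters are membrane proteins that move amino acids into and out of cells. This account follows 7 of their genes, Slc7a10, Slc1a3, Slc1a5, Slc36a2, Slc7a2, Slc7a5 and Slc3a2, among the 56980 genes listed in single-nucleus RNA sequencing (snRNA-seq) of mouse white adipose tissue. They were taken by gene symbol, and all 7 were found, each as a single row. They were chosen by their adipocyte levels and differences between groups in earlier results of these same data, so their own levels and differences are given as descriptions without p-values.

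The samples were 6 libraries of nuclei from female C57BL/6J mice with no genetic change or treatment named in the labels, in 3 groups of 2 libraries each. Subcutaneous fat from the inguinal depot (SAT) was sampled at 2 and at 24 months of age, and visceral fat from the gonadal depot (VAT) at 24 months. The design text of the series gives the older age as 26 months, and the labels' 24 months is used here. Young VAT was not used here. The study collected both depots from 2 mice per age, and nothing ties a library to a mouse, so the spread between the 2 libraries of a group is the only replicate error. Values are given below as replicate 1 and replicate 2 of SAT at 2 months, then of SAT at 24 months, then of VAT at 24 months.

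Adipocytes use amino acids to build protein, as carbon for lipid synthesis and as signals of nutrient supply. The transporters differ in what they carry. Slc7a10 encodes Asc-1, an exchanger of small neutral amino acids such as serine and a surface marker of white adipocytes. Slc7a5 encodes the exchanger LAT1 for large neutral amino acids such as leucine, and both reach the membrane as partners of the heavy chain CD98, encoded by Slc3a2. Slc1a3 encodes a sodium-driven glutamate and aspartate importer, Slc1a5 the neutral amino acid exchanger ASCT2, known for glutamine uptake, Slc7a2 a carrier of cationic amino acids such as arginine, and Slc36a2 the proton-coupled transporter PAT2, which is used as a surface marker of brown and beige adipocytes.

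After filtering, 27074 nuclei remained, 2490 to 5776 per library, with median depths of 1380 to 1878 unique molecular identifiers (UMIs) per nucleus and 5262801 to 11480055 UMIs per library in these nuclei. All deposited barcodes held 8061862 to 16226690 UMIs per library. The median mitochondrial share of kept nuclei was 1.72% and 0.918%, 3.49% and 2.91%, and 0.776% and 5.07%. It was thus higher in SAT at 24 months than at 2 months without overlap, and its part in the differences below was not tested. Marker genes assigned 7243 nuclei to adipocytes. Although the labels name adipocytes as the cell type, adipocytes were 19.5%, 8.74%, 27.2%, 45.5%, 64.6% and 3.06% of kept nuclei, so the VAT libraries held 2866 and 155 of them. All 10 adipocyte markers were higher in these nuclei than in the others in all 6 libraries, which in part restates the naming, since it used these markers. VAT replicate 2 stood apart, with 793 nuclei in clusters named from ovary and oviduct markers and a summed ovary and oviduct marker level of 2833 CPM (UMIs of a gene scaled to a total of 1000000) against 25.1 to 51.0 CPM in the other libraries. Libraries shared at most 0.769% of barcodes.

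The 7 genes lie on 5 chromosomes of the GRCm39 build, here with GENCODE M39 gene models. Slc7a10 is on chromosome 7 (34885666 to 34906995, plus strand, 11 exons), as is Slc1a5 (16515265 to 16532731, plus strand, 9 exons). Slc1a3 is on chromosome 15 (8663604 to 8741595, minus strand, 10 exons), Slc36a2 on chromosome 11 (55048922 to 55075939, minus strand, 10 exons) and Slc3a2 on chromosome 19 (8684245 to 8701108, minus strand, 9 exons). Slc7a5 (122607884 to 122634433, minus strand, 10 exons) and Slc7a2 (41315431 to 41375345, plus strand, 12 exons) are on chromosome 8. Slc7a10 overlaps Lrp3 on the opposite strand over 7802 bases, Slc3a2 overlaps Gm59099 over 1684 and Snhg1 over 790 bases on the opposite strand, and Slc1a3 overlaps Gm37310 over 2968 bases on its own strand and Gm31340 over 3686 bases on the opposite strand. Whether the counting used strand was not stated, so reads of the shared bases cannot be told apart.

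The 250 bases before the canonical start are shown for Slc7a10, Slc1a3 and Slc1a5, which are 3 of the 4 genes with most of their UMIs in adipocytes. They are written in the direction of transcription, from the GRCm39 genome, and capitals mark the GC box GGGCGG on either strand.
Slc7a10 promoter, chr7:34885447-34885696, plus strand: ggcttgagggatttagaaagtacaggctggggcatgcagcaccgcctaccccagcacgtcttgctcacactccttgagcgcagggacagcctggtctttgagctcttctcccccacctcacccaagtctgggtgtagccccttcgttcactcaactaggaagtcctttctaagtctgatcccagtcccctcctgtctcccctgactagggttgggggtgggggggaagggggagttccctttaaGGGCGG
Slc1a3 promoter, chr15:8740277-8740526, minus strand: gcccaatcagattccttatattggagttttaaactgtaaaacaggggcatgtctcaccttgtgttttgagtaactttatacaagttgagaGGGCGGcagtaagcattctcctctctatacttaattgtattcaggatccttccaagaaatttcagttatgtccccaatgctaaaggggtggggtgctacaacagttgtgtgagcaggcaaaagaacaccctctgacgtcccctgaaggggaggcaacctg
Slc1a5 promoter, chr7:16515015-16515264, plus strand: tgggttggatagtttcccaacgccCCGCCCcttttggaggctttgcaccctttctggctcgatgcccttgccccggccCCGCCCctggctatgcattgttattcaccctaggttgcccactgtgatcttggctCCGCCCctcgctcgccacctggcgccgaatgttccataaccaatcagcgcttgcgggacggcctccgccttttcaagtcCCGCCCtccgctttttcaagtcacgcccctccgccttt
The GC content of the 3 windows was 59.2%, 44.8% and 61.6% in this order, against a median of 53.2% over promoters. The Slc1a5 window held 4 GC boxes, and those of Slc7a10 and Slc1a3 held 1 each. A GC box was found in 36.4% of 21631 promoter windows of the same length, so its presence does not set these genes apart. The letters TGATGNAA (ATF4), TTGCGNAA (C/EBP), TGACGTCA (cAMP response element) and the PPAR direct repeat with a spacing of 1 base, searched on both strands, were in none of these 3 windows and in 3.40%, 0.749%, 1.69% and 0.351% of all windows.

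The first comparison asks in which cell class each transporter was found. Since adipocyte levels were part of the choice, the values are a description. Over all libraries together, Slc7a10, Slc1a3, Slc1a5 and Slc36a2 had 87.3%, 85.9%, 81.9% and 83.0% of their UMIs in adipocyte nuclei, whereas Slc3a2 had 23.5%, Slc7a5 4.79% and Slc7a2 2.21%. These shares are out of 40298, 47585, 85697, 7016, 4041, 1379 and 9231 UMIs, in the same order. By library the share in adipocytes was 77.0% to 91.3% for Slc7a10, 39.8% to 92.9% for Slc1a3, 46.7% to 90.9% for Slc1a5 and 65.1% to 91.8% for Slc36a2, and it was lowest in VAT replicate 2 for Slc1a3 and Slc36a2 and in SAT at 2 months replicate 2 for Slc7a10 and Slc1a5. For the other 3 genes it was 2.85% to 67.5% (Slc3a2), from 0.866% up to 21 of 42 UMIs (Slc7a5) and 1.15% to 54.5% (Slc7a2), highest in VAT replicate 1. In CPM, the first 4 genes were higher in adipocytes than in the other nuclei in 6 of 6 libraries, and Slc3a2, Slc7a5 and Slc7a2 in 0 of 6. The ratio of adipocytes to other nuclei had a median of 22.6 for Slc7a10 (3.65 to 139 over the 6 libraries), 17.0 for Slc1a3 (4.51 to 34.1), 13.8 for Slc36a2 (3.88 to 42.7) and 9.13 for Slc1a5 (3.44 to 28.1). It was 0.660 for Slc3a2 (0.478 to 0.720), 0.260 for Slc7a5 (0.175 to 0.463) and 0.101 for Slc7a2 (0.0334 to 0.415).

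**Figure D1:**
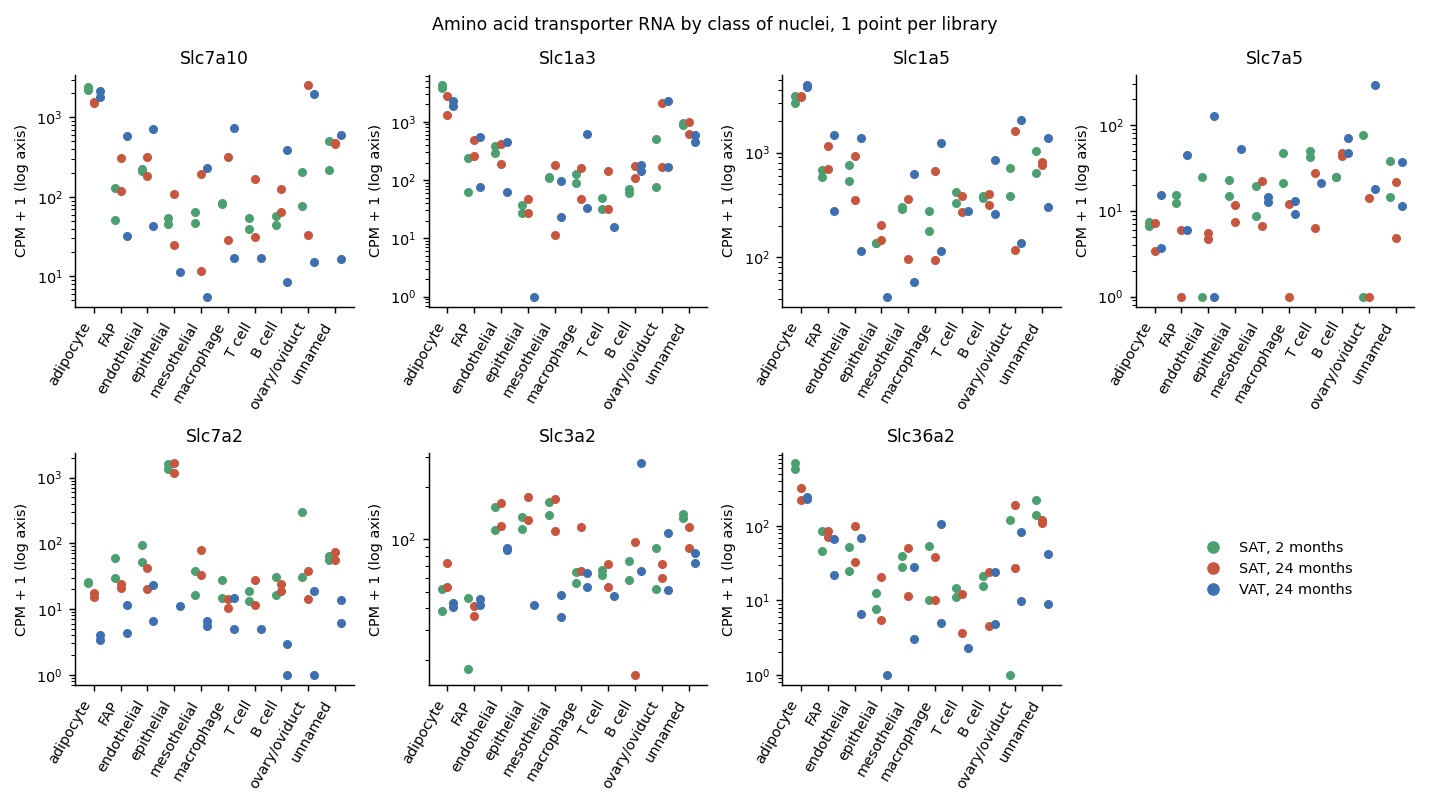
Level of each transporter (CPM + 1 on a log y axis) in each class of nuclei (x axis), with a point per library coloured by group. The 4 SAT libraries lay at 1152 to 1637 CPM for Slc7a2 in epithelial nuclei, and nuclei of the ovary and oviduct clusters reached 2549 CPM for Slc7a10 in SAT at 24 months replicate 2, above its adipocytes at 1531 CPM.

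Levels in the 4 SAT libraries were ordered over 11 classes, leaving out skeletal muscle nuclei, nuclei of the ovary and oviduct clusters and unnamed nuclei. Adipocyte Slc7a10 was at 1929 ± 456 CPM (SD, n = 4 libraries), followed by endothelial nuclei at 234 ± 56.7 and fibro-adipogenic progenitors (FAPs) at 152 ± 110. Slc1a3 was at 3038 ± 1323 in adipocytes and 318 ± 101 in the next of these classes, endothelial nuclei. Slc1a5 was at 3322 ± 245 in adipocytes and 776 ± 254 in FAPs, and Slc36a2 at 455 ± 219 and 71.4 ± 18.9 CPM. For each of these genes the ranges of adipocytes and of the next of the 11 classes did not overlap, while the classes further down overlapped their neighbours, apart from Slc1a5 in epithelial nuclei and mature dendritic cells.

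UMIs of these genes were also found in the nuclei left out of that order, and their source was not tested. Unnamed nuclei of SAT were at 414 ± 135 CPM for Slc7a10 and 849 ± 167 CPM for Slc1a3 (n = 4), above endothelial nuclei. In VAT replicate 2, unnamed nuclei were at 447 CPM for Slc1a3 but 15.4 CPM for Slc7a10, with summed adipocyte markers at 387 CPM. Nuclei of the ovary and oviduct clusters, 29 to 123 per SAT library, were at 75.7 and 206 CPM for Slc7a10 at 2 months and at 32.5 and 2549 CPM at 24 months. For Slc1a3 they were at 75.7 and 500 CPM and at 169 and 2095 CPM, so for both genes their range overlapped that of adipocytes. In VAT replicate 1 they were at 1984 CPM for Slc7a10 and 2284 CPM for Slc1a3. The summed adipocyte markers of these nuclei were at 9670 CPM in SAT at 24 months replicate 2 and 9785 CPM in VAT replicate 1, against 578 to 1035 CPM in the other 4 libraries. Their ovary and oviduct markers were at 12870 CPM in VAT replicate 2 and at 95.2 to 364 CPM elsewhere, against 25.1 to 51.0 CPM over all nuclei of those libraries. Outside VAT replicate 2 the name of these clusters thus rests on low marker levels. In SAT at 24 months replicate 2 and VAT replicate 1 the data go against the name.

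The other nuclei of a library also held UMIs of these genes. Slc7a10 in nuclei other than adipocytes was at 102 and 61.9, 73.8 and 281, and 594 and 12.9 CPM, highest in VAT replicate 1 and lowest in VAT replicate 2, the libraries with the largest and smallest share of adipocytes. At least 1 UMI of Slc7a10 was found in 82.8% to 95.0% of adipocytes and in 1.7% to 16.3% of T cells, a class that should lack it, at median depths of 1579 to 2274.5 and 1247 to 1519 UMIs. With each nucleus thinned to 1000 UMIs, the adipocyte share was 72.1% to 83.7%. Slc1a3 was found in 96.8% and 95.4%, 91.6% and 76.3%, and 91.4% and 85.8% of adipocytes, and after thinning in 92.7% and 90.7%, 79.8% and 59.5%, and 77.8% and 68.4%, against 1.5% to 8.1% of T cells before thinning. SAT at 24 months replicate 2 thus stood lowest, below the other library of its group. Slc36a2 was found in 31.6% to 53.7% of adipocytes and 0.2% to 2.0% of T cells. Slc1a5 stood apart, with a UMI in 94.7% to 98.3% of adipocytes and in 26.9% to 36.9% of T cells.

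The ratio of Slc1a5 to Slc7a10 UMIs differed by class. It was 1.42, 1.35, 2.18, 2.26, 2.04 and 2.40 in adipocytes, and 7.82, 8.58, 8.70, 2.30 and 17.3 in the T cells of the 5 libraries with enough of them. In SAT at 24 months replicate 2 the T cell ratio was close to that of adipocytes, and in the other 4 libraries it was higher than in adipocytes. The ratio of Slc1a3 to Slc7a10 was 0.79 to 1.00 in the T cells of SAT, and 1.58, 1.94, 1.76 and 0.85 in its adipocytes. The part of free RNA in the levels of other classes was not tested. A cluster of 138 FAP nuclei also had adipocyte genes among its leading genes, with Slc1a5 at 3732 and Slc7a10 at 1723 CPM. Without that cluster, Slc1a5 in FAPs was at 611 and 570, 561 and 667, and 731 and 230 CPM, and Slc7a10 at 64.9 and 42.5, 26.1 and 102, and 197 and 8.51 CPM.

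The paper listed Slc7a2 with Areg for a subpopulation it named Mesothelial2. Here mesothelial nuclei of SAT were at a mean of 40.5 CPM for Slc7a2, and epithelial nuclei of SAT had the highest level of the 11 classes. The tissue these epithelial nuclei came from was not tested. In them Slc7a2 was mostly found in a single cluster. It was at 1592 and 1359 CPM in epithelial nuclei of SAT at 2 months and at 1152 and 1637 CPM at 24 months, with no overlap with the next of the 11 classes, endothelial nuclei, at a mean of 51.4 CPM. Of the nuclei outside that order, those of the ovary and oviduct clusters were at up to 303 CPM and unnamed nuclei at 53.9 to 71.6 CPM in SAT, and 25 skeletal muscle nuclei of SAT at 24 months replicate 2 at 322 CPM. A single cluster of 715 epithelial nuclei, led by Areg, an epidermal growth factor family ligand, and by Slc7a2 itself, held 90.3% of all its UMIs at 2149 CPM, while another epithelial cluster of 332 nuclei was at 65.6 CPM. Between 35.8% and 64.7% of epithelial nuclei of SAT had a UMI of Slc7a2, against 3.1% to 4.8% of adipocytes there. The few epithelial nuclei of VAT replicate 2 (37 nuclei) held 1 UMI.

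Slc7a5 was low in adipocytes, at a mean of 5.17 ± 1.91 CPM in SAT (n = 4), the lowest of the 11 classes. The class named conventional dendritic cells was the highest of the 11 classes in SAT at 63.1 ± 22.8 CPM. It was followed by B cells at 34.1 and T cells at 30.4 CPM, and neighbours in this order overlapped. That class joined a cluster of 219 nuclei led by Wdfy4 and Plbd1 with another of 204 nuclei led by Siglech, a plasmacytoid dendritic gene. Its values can therefore not be given to conventional dendritic cells alone. The clusters led by the proliferation genes Mki67 and Top2a were at 101 and 80.9 CPM. In VAT replicate 2, a cluster of 124 nuclei led by Cyp11a1 and Lhcgr, genes of steroid-making ovarian cells, was at 671 CPM. Slc3a2 was spread over the classes, from 145 ± 26.7 CPM in mesothelial nuclei to 34.3 in FAPs, with adipocytes seventh of the 11 classes at 53.1 ± 14.2 CPM and overlapping neighbours, so the shared heavy chain did not follow its adipocyte partner Slc7a10.

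Likeness of profiles over the 62 pairs of library and class was measured as Pearson's r of log2(CPM + 1), as a description across 15441 genes, since pairs share libraries and depth, and the 7 transporters were left out of the ranking and compared with each other separately. Slc7a10 was most like Apol6 (0.944) and Adrb3 (0.927), the adrenergic receptor of adipocytes. Slc1a3 was most like the same genes (0.879 and 0.876), and Slc36a2 was most like Apol6 (0.894) and Tmem120a (0.875). Slc1a5 was most like Sgcd (0.872) and Rgcc (0.861), Slc7a2 most like Agtr1a (0.787) and Ido1 (0.760). For Slc7a5 (1700095J07Rik at 0.631, Zgrf1 at 0.598) and Slc3a2 (Arrb1 at 0.632, Mall at 0.597) no gene came close. Among the transporters, Slc7a10, Slc1a3 and Slc36a2 had r of 0.884 to 0.902 with each other, and Slc1a5 of 0.756 to 0.769 with them.

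The second comparison asks how the adipocytes of SAT differed between 24 and 2 months. Slc36a2, Slc1a3 and Slc7a10 had lower values at 24 months, Slc1a5 was nearly level, and the heavy chain Slc3a2 had higher values. Slc36a2 was at 582 and 693 CPM at 2 months and at 225 and 322 CPM at 24 months, so the groups did not overlap. Its mean was 637 ± 78.4 and 274 ± 68.5 CPM (SD, n = 2), a log2 difference of -1.06 ± 0.26 (SE of the edgeR fit) that ranged from -1.27 to -0.78 over 13 alternatives. In nuclei other than adipocytes Slc36a2 was at 38.8 and 26.8 CPM at 2 months and at 17.8 and 57.2 CPM at 24 months, which overlap. The share of adipocytes with a Slc36a2 UMI, after thinning to 1000 UMIs, was 35.6% and 41.4% at 2 months and 18.0% and 24.4% at 24 months.

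Slc1a3 was at 3842 and 4261 CPM at 2 months and at 2749 and 1299 CPM at 24 months. Both libraries at 24 months were below both at 2 months, but they were also far from each other (2024 ± 1025 CPM against 4052 ± 296). The log2 difference was -0.83 ± 0.38, and it was -0.32 without SAT at 24 months replicate 2 and -1.44 without replicate 1. Slc7a10 was at 2437 and 2192 CPM at 2 months and at 1558 and 1531 CPM at 24 months, again without overlap. Its log2 difference was -0.42 ± 0.29, and it stayed negative in the 13 alternatives, from -0.60 to -0.17.

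Slc1a5 was at 3466 and 2959 CPM at 2 months and at 3399 and 3466 CPM at 24 months, overlapping, with a log2 difference of 0.25 ± 0.30. Slc3a2 was at 50.7 and 37.5 CPM at 2 months and at 52.3 and 71.9 CPM at 24 months (log2 difference 0.64 ± 0.28). Nuclei other than adipocytes showed Slc3a2 at 78.2 and 78.4 CPM at 2 months and at 103 and 102 CPM at 24 months. Slc7a2 was at 24.8 and 23.9 CPM in adipocytes at 2 months and at 14.5 and 16.5 CPM at 24 months (-0.49 ± 0.40), on 21 to 91 UMIs per library. Slc7a5 rested on 5 to 13 UMIs per library, and its log2 difference of -0.54 ± 0.86 changed sign, to 0.24, without SAT at 24 months replicate 2.

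**Figure D2:**
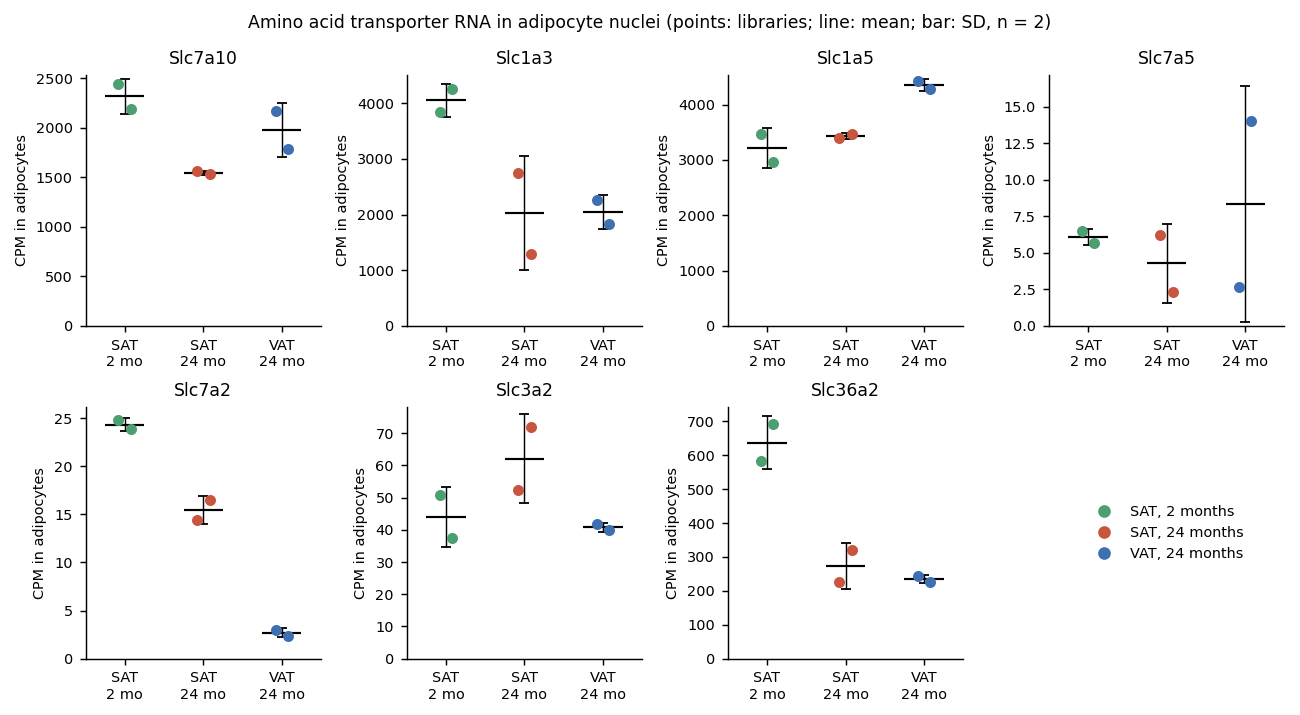
Level of each transporter in adipocytes (CPM, y axis from 0) in the 3 groups (x axis), with a point per library, a line at the mean and a bar for the SD (n = 2). The 2-month SAT libraries lay at 582 and 693 CPM for Slc36a2 and the 24-month ones at 225 and 322 CPM, while Slc1a5 was highest in VAT at 4431 and 4282 CPM.

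With edgeR's quasi-likelihood test and Benjamini-Hochberg adjustment over all 12915 genes tested in adipocytes, 1 of the 7 transporters, Slc36a2, was called, where 14.8% of all genes were called (6.85% higher, 7.90% lower). Levels at 24 months did not overlap with those at 2 months for 4 lower genes (Slc7a10, Slc1a3, Slc7a2 and Slc36a2) and 1 higher gene (Slc3a2), where 38.9% and 21.9% of all genes did the same (60.8% in either direction). Since the genes were chosen with these differences known, nothing is read from these counts. Immune marker genes moved with age in these nuclei, with a summed level in adipocytes of 846 and 1521 CPM at 2 months and 266 and 218 CPM at 24 months. Without adipocyte nuclei holding an immune marker UMI, a setting added after the data were seen, the Slc3a2 difference was 0.21.

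Within adipocytes the difference in Slc36a2 was seen in each of the 5 clusters. In the largest, led by Fam13a and Slc1a3, Slc36a2 was at 644 and 681 CPM at 2 months and 238 and 337 CPM at 24 months. In the cluster led by Gm31517 and Adamts5 it was at 477 and 646 CPM and at 217 and 286 CPM. In the cluster led by the fatty acid synthesis genes Acaca, Acacb and Fasn it was at 646 and 900 CPM and at 274 and 568 CPM, on 28 to 217 nuclei per library, and it was also at 639 CPM in VAT replicate 1. Slc1a3 in the cluster led by Cfd and Adipoq was at 3415 and 3021 CPM at 2 months, and at 2849 and 632 CPM at 24 months, so that the gap between the libraries at 24 months was wider there than in the whole class. In the cluster led by Acaca, Acacb and Fasn, Slc1a3 was at 3653 and 4675 CPM and at 4309 and 1634 CPM, so the ages overlapped there. Slc7a10 at 24 months in SAT was at 1566 and 1533 CPM in the largest cluster and at 1516 and 1596 CPM in the cluster led by Gm31517, against 2397 and 2057 CPM and 2521 and 2676 CPM at 2 months. In the cluster led by Gm10801, which included SAT at 24 months replicate 2 at 2351 CPM, the ages overlapped for Slc7a10. Slc1a5 in the cluster led by Gm31517 was at 4640 and 4835 CPM in VAT against 3464 and 3607 CPM in SAT at 24 months. In the largest cluster (4338 and 3390 against 3305 and 3471 CPM) and the one led by Gm10801 (4009 and 2658 against 3394 and 2326 CPM) the depots overlapped.

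**Figure D3:**
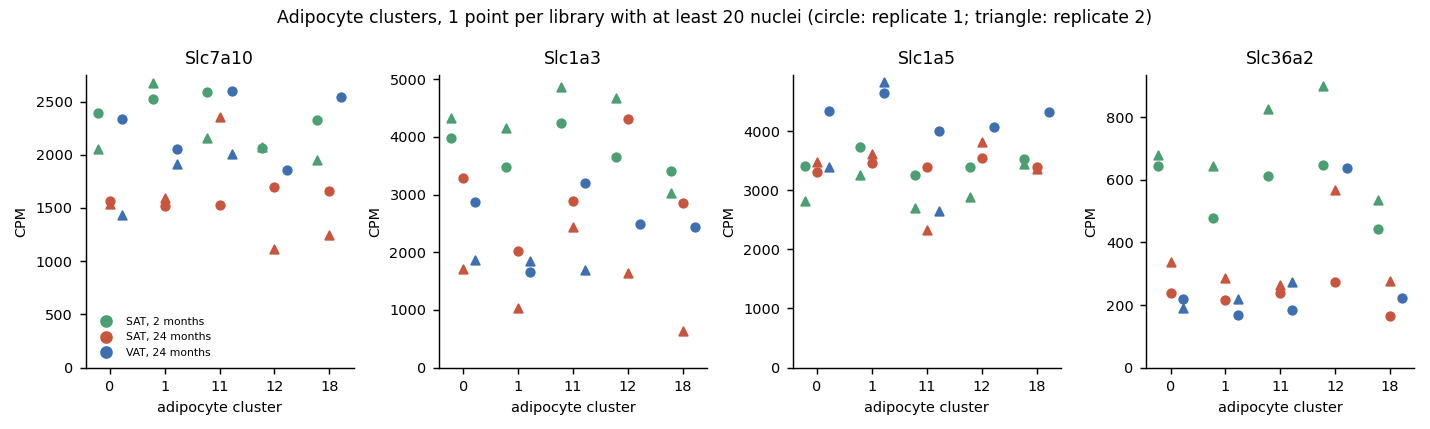
Transporter level (CPM, y axis) in the 5 adipocyte clusters (x axis), with a point per library of at least 20 nuclei coloured by group. Slc36a2 at 2 months lay above its 24-month level of SAT in each cluster, and in the cluster led by Acaca, Acacb and Fasn VAT replicate 1 reached 639 CPM.

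The third comparison asks how adipocytes of VAT and SAT differed at 24 months. It shares the SAT libraries at 24 months with the comparison by age, so the differences of both are not independent. Slc1a5 was at 4431 and 4282 CPM in VAT against 3399 and 3466 CPM in SAT, without overlap, and its log2 difference of 0.37 ± 0.30 ranged from 0.23 to 0.43 in the alternatives. Slc7a10 was at 2169 and 1786 CPM in VAT against 1558 and 1531 CPM in SAT (0.39 ± 0.29), also without overlap, and its log2 difference was 0.17 without VAT replicate 1. Slc1a3 was at 2270 and 1833 CPM in VAT, between the SAT values of 2749 and 1299 CPM (0.04 ± 0.37). Its log2 difference was 0.69 without SAT at 24 months replicate 1 and -0.46 without replicate 2. Slc36a2 was at 243 and 227 CPM in VAT, between 225 and 322 CPM in SAT (-0.18 ± 0.27). This difference was -0.42 without SAT at 24 months replicate 1 and changed sign, to 0.02, without replicate 2.

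Slc7a2 showed the lowest values relative to SAT. It was at 3.02 and 2.34 CPM in VAT adipocytes, on 24 and 1 UMIs, against 14.5 and 16.5 CPM in SAT (-2.34 ± 0.48). In the nuclei other than adipocytes Slc7a2 was at 7.27 and 8.80 CPM in VAT and at 351 and 493 CPM in SAT, and the part of their RNA in the adipocyte levels was not tested. Slc3a2 was at 41.8 and 39.8 CPM in VAT and at 52.3 and 71.9 CPM in SAT (-0.56 ± 0.28), while in other nuclei it was at 58.1 and 59.2 against 103 and 102 CPM. The log2 difference of Slc3a2 was -0.37 without SAT at 24 months replicate 2. Slc7a5 was at 2.64 CPM in VAT replicate 1 and 14.0 CPM in VAT replicate 2, whose adipocytes also held the ovary and oviduct marker genes at 347 CPM, against 18.1 to 72.7 CPM in the other libraries.

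By the same edgeR test 0 of the 7 transporters were called, where 0.170% of all genes were called (22 of 12915, 0.0619% higher and 0.108% lower in VAT). Levels did not overlap for 2 genes higher in VAT (Slc7a10 and Slc1a5) and 2 lower (Slc7a2 and Slc3a2), where 15.8% and 19.5% of all genes did the same (35.2% in either direction). VAT replicate 2 rested on 155 adipocyte nuclei, and without it the log2 difference of Slc7a5 was -0.44 instead of 0.47, while without VAT replicate 1 it was 1.86.

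**Figure D4:**
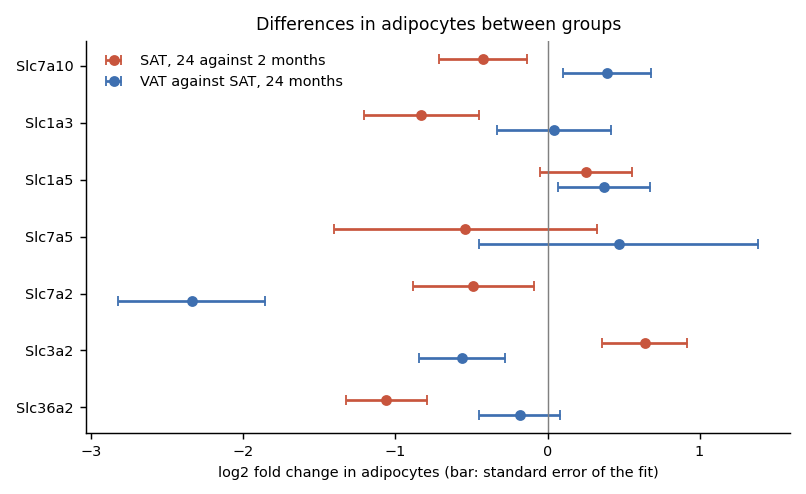
Log2 fold change of each transporter in adipocytes (x axis) for SAT at 24 against 2 months and for VAT against SAT at 24 months, with bars of 1 SE of the edgeR fit. The age difference of Slc36a2 was -1.06 and the depot difference of Slc7a2 was -2.34, while the depot difference of Slc1a3 was 0.04 and ran from -0.46 to 0.69 when a library was left out.

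Other genes of amino acid handling were taken from 4 lists: other transporters, amino acid metabolism, the response to amino acid shortage, and sensing through the growth-controlling kinase complex mTORC1. These lists were chosen with earlier results of these same data known, so the p-values of their genes are not independent evidence. With age in SAT adipocytes, edgeR's quasi-likelihood test with Benjamini-Hochberg adjustment called 6 of the 36 other transporters tested (60 listed), 1 higher and 5 lower, beside 14.8% of all genes. The median log2 difference of the list was -0.43, against -0.003 over all genes.

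Among the lower ones, Slc7a11, the cystine and glutamate exchanger, was at 28.0 and 32.9 CPM at 2 months and 8.26 and 5.43 CPM at 24 months (log2 difference -2.06 ± 0.48, edgeR adjusted p = 0.0147). Sfxn1, a mitochondrial serine carrier, was at 443 and 294 and at 109 and 142 CPM (-1.40 ± 0.28, edgeR adjusted p = 0.00647). Slc43a1, a carrier of large neutral amino acids like Slc7a5, was at 569 and 761 and at 309 and 170 CPM (-1.31 ± 0.33, edgeR adjusted p = 0.0206). Slc38a1, a glutamine importer, was at 12.9 and 29.5 and at 3.44 and 4.71 CPM (-2.11 ± 0.65, edgeR adjusted p = 0.0486), and Slc25a13, a mitochondrial aspartate and glutamate carrier, rested on 15 and 10 UMIs against 3 and 3 (-3.08 ± 0.94, edgeR adjusted p = 0.0450). Slc7a6, another partner of CD98, rose from 102 and 101 to 154 and 218 CPM (1.03 ± 0.25, edgeR adjusted p = 0.0162). For none of these 6 genes did the libraries of the ages overlap, where 60.8% of all genes did not overlap either. The 6 genes were called on these same libraries, so nothing further is read from this.

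In amino acid metabolism 6 of 42 genes tested (51 listed) were called, 2 higher and 4 lower, beside 14.8% of all genes, with a median of -0.15. Aspg, an asparaginase, fell from 196 and 181 CPM to 0.688 and 2.54 CPM (-6.34 ± 0.57, edgeR adjusted p = 6e-05). Bcat2, the mitochondrial aminotransferase of branched-chain amino acids, fell from 290 and 250 to 116 and 92.5 CPM (-1.23 ± 0.26, edgeR adjusted p = 0.00931). Glud1, glutamate dehydrogenase, fell from 152 and 136 to 59.9 and 73.7 CPM, and Nos3, the endothelial nitric oxide synthase that uses arginine, from 67.9 and 64.7 to 23.4 and 35.5 CPM. Pcca, a subunit of propionyl-CoA carboxylase, rose from 174 and 124 to 301 and 266 CPM, and Gpt, alanine aminotransferase, from 72.2 and 65.9 to 94.3 and 143 CPM.

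In the response to amino acid shortage 3 of 24 genes tested (27 listed) were called, beside 14.8% of all genes, with a median of -0.02. The secreted glycoprotein gene Stc2 rose from 21.6 in both libraries to 55.1 and 57.2 CPM, the transcription factor Atf5 rose from 39.9 and 32.9 to 48.2 and 84.4 CPM, and Chac1, a glutathione-degrading enzyme, fell from 14.5 and 14.8 to 0.688 and 2.54 CPM. In mTORC1 sensing 2 of 37 (39 listed) were called, beside 14.8% of all genes, with a median of 0.18. Sesn1, an inhibitor of mTORC1 signalling, rose from 107 and 93.1 to 218 and 159 CPM, and Flcn, which acts in amino acid signalling at the lysosome, fell from 191 and 206 to 76.4 and 102 CPM.

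**Figure D5:**
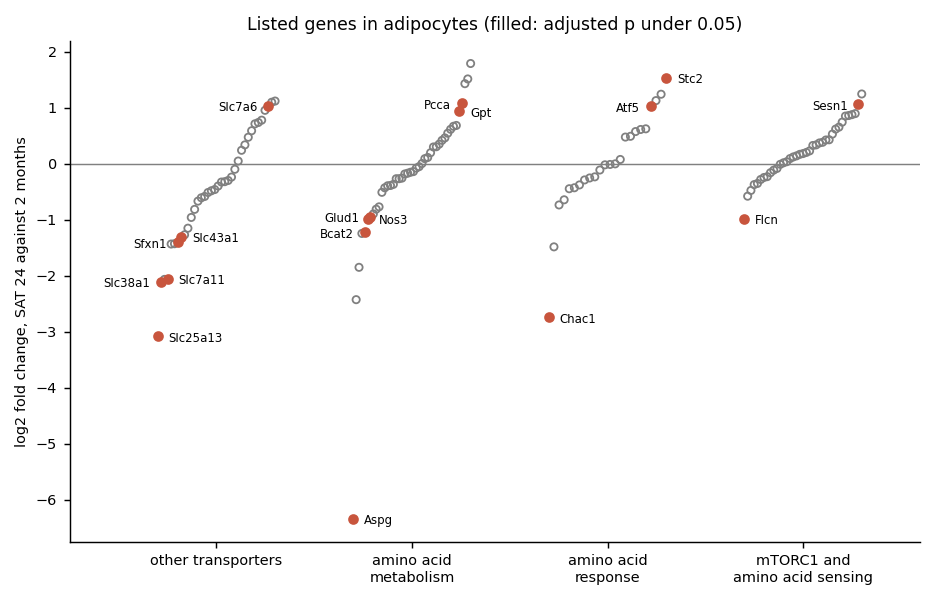
Log2 fold change in SAT adipocytes at 24 against 2 months (y axis) of each tested gene of the 4 lists (x axis), ordered by size within a list, with filled points for an edgeR adjusted p under 0.05. In the list of other transporters 5 of the 6 filled points lay below 0, and Aspg at -6.34 lay furthest from it.

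Without the adipocyte nuclei that held an immune marker UMI, 2 of the other transporters (Sfxn1 and Slc43a1) and 1 metabolic gene (Aspg) were called, and 0 of the response genes (4 at an unadjusted p under 0.05 by edgeR) and 0 of the mTORC1 genes (6 at an unadjusted p under 0.05). Slc38a1 and Slc25a13 could not be fitted in that setting. Leaving out a library also moved the counts: the 6 other transporters were 1 without SAT at 2 months replicate 1, without SAT at 2 months replicate 2 or without SAT at 24 months replicate 2, the 6 metabolic genes were 1 without either library at 2 months, the 3 response genes were 1 and 0 without replicate 1 and replicate 2 at 2 months and 5 without replicate 1 at 24 months, and the 2 mTORC1 genes were 0 without either library at 2 months. Among the named genes, Aspg was called in 14 of 14 alternatives and Sfxn1 in 13 of 14, whereas Glud1 and Atf5 were called in 6 of 14, Nos3 in 7 of 14, and Slc38a1 and Slc25a13 in 7 of the 13 alternatives in which they could be fitted. The other genes were called in 9 to 11 of 14.

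Between VAT and SAT at 24 months the lists held 1 call, Aspg, at 36.1 and 4.68 CPM in VAT against 0.688 and 2.54 CPM in SAT (3.79 ± 0.59, edgeR adjusted p = 0.0269), and without VAT replicate 1 its log2 difference was 1.13 (edgeR adjusted p = 0.754). The count was 0 of 36 other transporters (5 at an unadjusted p under 0.05 by edgeR, 0 adjusted by DESeq2), 0 of 24 response genes (2 unadjusted, 0 by DESeq2) and 0 of 37 mTORC1 genes (2 unadjusted, 0 by DESeq2), beside 0.170% of all genes.

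Slc7a5, low in adipocytes, was also read in T cells. It was at 41.3 and 48.7 CPM in T cells of SAT at 2 months, on 102 and 164 UMIs, and at 5.34 and 26.4 CPM at 24 months, on 4 and 7 UMIs (log2 difference -1.92 ± 0.49). The groups did not overlap. edgeR called 1 of 7 transporters in T cells, Slc7a5, where 13.3% of all genes were called (7.90% higher, 5.40% lower), a share near the background from which nothing is read. Other immune classes of SAT did not all move the same way. Slc7a5 was at 23.5 and 23.8 CPM at 2 months and at 42.5 and 46.5 CPM at 24 months in B cells, on 6 to 29 UMIs per library. In the conventional dendritic class, which included the Siglech cluster, it was at 52.2 and 42.5 CPM and at 95.0 and 62.5 CPM. These rested on 5 to 13 UMIs per library. In both classes the values at 24 months were the higher ones without overlap. In macrophages it was at 46.2 and 20.1 CPM and at 0.0 and 10.98 CPM, on 0 to 10 UMIs. The value of 0 came from 66 nuclei, in which 3 UMIs would be 27.7 CPM, so a difference by age cannot be read in macrophages. In mature dendritic cells the ages overlapped. For Slc7a5, cycling T cell clusters were at 107 and 145 CPM at 2 months and at 15.3 and 184 CPM at 24 months, where they held 1 UMI in 25 nuclei and 3 UMIs in 9 nuclei, so the ages overlapped there. The other T cell clusters were at 28.6 and 39.4 CPM and at 4.39 and 16.1 CPM.

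Of the other transporters, edgeR's quasi-likelihood test with Benjamini-Hochberg adjustment called 0 of 25 with age in FAPs, 0 of 39 in all immune nuclei and 0 of 20 in endothelial nuclei (6, 3 and 3 at an unadjusted p under 0.05, and 0 by DESeq2 in each), beside 0%, 0% and 0.0247% of all genes. In T cells 3 of 31 were called, beside 13.3% of all genes (5.40% lower), and Slc6a19 (-3.39), Slc25a22 (-1.25) and Slc38a2 (-0.93) fell. In epithelial nuclei 2 of 38 were called, where 7.26% of all genes were called (3.71% higher and 3.55% lower). Ctns, the lysosomal cystine exporter, fell (-2.93) and Slc1a1, a glutamate importer, rose (2.51). In mesothelial nuclei 1 of 11 was called between depots, as Slc25a12, a mitochondrial aspartate and glutamate carrier, was higher in VAT than in SAT (2.59), where 5.76% of all genes were called (2.36% higher and 3.40% lower).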

How the data were processed

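Nuclei were captured with the Singleron GEXSCOPE kit and sequenced on an Illumina HiSeq X10, and the authors aligned and counted reads with Celescope against GRCm39. The Celescope version and the annotation were not given in the sources used here. The values deposited are raw UMI counts for each gene in each nucleus, with no normalization. The transporters and gene lists were chosen with earlier results of these data known.

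A nucleus was kept if it had more than 500 genes, more than 1000 UMIs and a mitochondrial share below 15%, as in the study. Counts were log-scaled, 30 components of 1000 variable genes were corrected with a reimplemented Harmony, and 20 neighbours were clustered with Leiden (resolution 2.0, seed 1). Clusters were named from marker lists, with at least 3 markers above 2-fold. Immune subtypes were named in the same step, rather than after a second clustering as planned, and lymph node stroma genes and further adipocyte genes that bar a name were added after clusters had been seen. Scrublet marked 36 of 27074 nuclei and so had not worked, and doublets stayed in. Names are candidate identities from RNA alone.

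UMIs were summed per library and class with at least 20 nuclei. A sum per class cannot tell fewer expressing nuclei from less RNA per nucleus. edgeR 4.0.16 (R 4.3.3) fitted the 3 groups together (TMM scaling, filterByExpr, quasi-likelihood test, two-sided, Benjamini-Hochberg adjustment over all genes), and called genes had an adjusted p under 0.05. On simulated adipocyte counts of 12689 genes for the age comparison, 1.64% of genes changed by a log2 difference of 1 were recovered, 55.4% of those changed by 2 and 98.4% of those changed by 4, with 5 false calls. The simulation gave all genes the same fixed dispersion and changed only 61, 65 and 64 genes by these sizes. In the data 1905 of 12915 genes were called, so these figures do not give the power or error of the test there. DESeq2 1.42.0 was an alternative, beside library-size scaling, no filter on low counts, only the 4 libraries compared, a replicate block, a 500 UMI minimum, no Harmony correction and leaving out each library. p-values measure only the spread between these libraries. The deposited labels tie no library to a mouse, and samples with one replicate number did not deviate together (r = -0.0902 for both ages of SAT and 0.0940 for both depots). All transporters were described, and from each list and contrast at most the 5 genes with the largest change per direction among those called, and for each transporter the 2 genes most like it among genes with at least 200 counts.

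Promoters were read from GRCm39 with GENCODE M39 starts, and those of 4 of the 7 genes are not reported here. Clustering used scanpy 1.11.5, leidenalg 0.10.2, igraph 0.11.9 and scikit-learn 1.9.0, tables pandas 2.3.3, scipy 1.17.1 and numpy 2.4.6, and plots matplotlib 3.10.9, all in Python 3.11.15.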

Additional observations from a re-analysis of the deposited data

Results flagged for a closer look

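Slc7a10 and Slc1a3 had lower values at 24 months in adipocytes of SAT and higher values in B cells, and Slc1a3 also had higher values in FAPs, but the difference was not tested. Slc7a10 was lower at 24 months in both adipocyte libraries, and in B cells it was at 56.5 and 42.7 CPM at 2 months and 63.7 and 124 CPM at 24 months, so that the log2 differences of the classes were 1.503 apart. Slc1a3 was at 70.4 and 58.3 CPM in B cells at 2 months and at 173 and 108 CPM at 24 months, so that its log2 differences in the classes were 2.13 apart. In FAPs Slc1a3 was at 237 and 61.9 CPM at 2 months and 493 and 254 CPM at 24 months, which put its log2 difference 2.32 above that in adipocytes. Without the FAP cluster that held adipocyte genes, Slc1a3 in FAPs was at 118 and 56.7 CPM and at 117 and 118 CPM. Values were also higher at 24 months without overlap for Slc7a10 in NK cells (16.3 and 28.3 against 73.4 and 121 CPM, on 2 to 10 UMIs per library). The same held for Slc1a3 in the conventional dendritic class, which included the Siglech cluster (83.6 and 45.8 against 247 and 125 CPM, on 10 to 16 UMIs per library). In endothelial, epithelial, mesothelial, macrophage and T cell nuclei and mature dendritic cells of SAT the ages overlapped for both genes. Adipocytes were a larger share of nuclei in both libraries at 24 months, and the part of their free RNA in these levels was not tested.

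Slc7a5 was at 289 CPM in the 793 ovary and oviduct nuclei of VAT replicate 2, on 464 UMIs, a tissue that belongs to no comparison.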

How the results depend on the processing

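All values below are counts of genes called with edgeR's adjusted p unless another tool is named. The 18 adipocyte differences of called genes of the 4 lists (Aspg in both comparisons) kept their direction in every alternative run, and 167 of their refitted tests stayed past the threshold while 83 did not. For the age comparison of adipocytes, the count of 1905 genes was 1073 with a 500 UMI minimum, 678 without nuclei holding an immune marker UMI, 1355 by DESeq2, and 504 to 1895 when a library was left out, with 504 and 648 for the 2 libraries at 2 months. In the same order of settings, the other transporters (6) were 2, 2, 4 and 1 to 8, metabolism (6) 3, 1, 5 and 1 to 8, and mTORC1 sensing (2) 1, 0, 2 and 0 to 3. The response list (3) was 0 without immune-marked nuclei and 0 to 5 when a library was left out. With no filter on low counts, the response and mTORC1 lists both gave 5, and the 4 libraries alone gave 4 for mTORC1 sensing.

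For VAT against SAT the count of 22 genes was 146 with no filter, 14 with the 4 libraries alone, 4 with a 500 UMI minimum, 8 without immune-marked nuclei, 31 by DESeq2, and 22 to 171 when a library was left out, with 171 and 50 for the SAT libraries and 58 for VAT replicate 2. The 1 metabolic gene was 0 by DESeq2, with 4 libraries and with a 500 UMI minimum, and 0 to 2 when a library was left out. With age, FAPs had 0 genes called, but 26 by DESeq2, 219 with no filter, 146 with 4 libraries and 97 without Harmony, and their other transporters 2 with no filter and 1 with 4 libraries. Immune nuclei had 0, but 75 by DESeq2 and 728 with no filter, and 2 of their other transporters then. Endothelial nuclei had 2, but 88 by DESeq2, 23 with library-size scaling, 304 with no filter, 55 with 4 libraries, 1 with a 500 UMI minimum, 27 without Harmony and 0 to 170 when a library was left out (170 without SAT at 24 months replicate 1). The causes were not tested. Calls in T cells, epithelial and mesothelial nuclei (Slc7a5 and 6 other transporters) were not refitted.

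With the replicate number as a replicate block, adipocytes gave 2115 genes with age and 29 between depots, mTORC1 sensing 5, and endothelial nuclei 0. The numbers were not shown to pair samples. Library-size scaling moved the median age difference of all genes in adipocytes from -0.003 to -0.18.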

Other observations

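A list of 8 surface and thermogenic genes of adipocytes was read in the same nuclei, and 4 of them (P2rx5, Cidea, Cox8b and Ppargc1a) had enough counts for the edgeR test. P2rx5, like Slc36a2 a surface marker of brown and beige adipocytes, was found in SAT adipocytes at 24.8 and 11.4 CPM for the young group and at 6.2 and 7.1 CPM for the old group, and in VAT adipocytes at 5.8 and 2.3 CPM. Cidea, a lipid droplet protein gene of thermogenic fat, had 22.6 and 52.2, 3.4 and 5.3, and 39.4 and 2.3 CPM in the same order. Its log2 difference with age was -2.79 ± 0.70, and its alternatives were not run. This list was planned as values without a test, and the paper had reported Cidea as higher in young mice. With age edgeR called 1 of the 4 genes, Cidea, beside 14.8% of all genes. Between depots it called 0 of 4 (1 at an unadjusted p under 0.05), beside 0.170% of all genes. Nothing is read from these counts. Cox8b had 19.4 and 13.6, 2.06 and 15.2, and 9.67 and 0.0 CPM, and Ppargc1a 42.6 and 29.5, 29.6 and 35.9, and 21.5 and 9.37 CPM. Ucp1 rested on 0 or 1 UMI in every library but VAT replicate 1, where it was at 17.8 CPM on 142 UMIs. Elovl3 had UMIs in VAT replicate 1 only (33 UMIs), and Cox7a1 and Dio2 stayed under 5 CPM in all 6 libraries.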
